A study of Mus musculus with 16 samples.

Results

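Acyl-CoA synthetases and the acyl-CoA N-acyltransferases were examined as a family of 10 genes in livers of the A/J and C57BL/6J strains on a high-fat, high-caloric (HFHC) diet. The members are the medium-chain synthetases *Acsm1*, *Acsm2*, *Acsm3* and *Acsm5*, the long-chain synthetases *Acsl1*, *Acsl3*, *Acsl4* and *Acsl5*, and the N-acyltransferases *Acnat1* and *Acnat2*. They were found by taking every array probe whose gene symbol was one of these names, which gave 17 of 25697 probes and 8 of the 10 genes. No probe carried the name *Acsl1* or *Acnat1* in the probe table used here, so these genes are not analysed here. Of the 17 probes, 12 probes of 7 genes were bright enough to be tested, and the single *Acsm2* probe was not.

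Total RNA from 16 liver samples was hybridized to Illumina Mouse Ref 8 bead arrays, 1 array per sample. The A/J group held 8 samples and the C57BL/6J group held 8 samples, all from males on the HFHC diet and recorded as 8 weeks of age. The sample titles say 8 weeks without naming age or time on the diet. The methods give mice of 8 to 10 wk, 8 wk of feeding and samples each pooled from 2 mice, whereas the sample labels do not mention pools, and the *P* values here reflect only how far these samples differed from each other. Both groups are inbred strains on the same diet with no arm on another diet, so strain and any other difference between the 2 groups of mice cannot be told apart.

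Acyl-CoA synthetases join a fatty acid to coenzyme A, the step that every fatty acid must pass before it can be oxidized, elongated or built into triglycerides and phospholipids. The ACSM enzymes of the mitochondrial matrix take medium-chain fatty acids and aromatic acids such as benzoate, and the ACSL enzymes of the endoplasmic reticulum, mitochondria and lipid droplets take long-chain fatty acids. The mouse ACNAT enzymes are peroxisomal relatives of the bile acid conjugating enzyme BAAT, and ACNAT1 couples fatty acyl groups to taurine. In the liver these steps sit between the uptake of fat and its storage, oxidation or excretion.

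The 50-base probe sequences are shown for the genes on which the strain comparison turns, because each probe reads only its own stretch of the transcript and the probes of 1 gene did not always give the same difference. They are written in lower case from the 5′ end as the deposited probe codes give them, without marked bases. The 3 *Acsm3* probes belong in the probe table to 3 transcript records (NM_212442, NM_212441 and NM_016870), and the longest run that any 2 of them share is 7 bases. For ILMN_1247231 and ILMN_2858121, which have a stop codon in every forward reading frame, the first 30 bases are given.
*Acsm3* ILMN_3111685: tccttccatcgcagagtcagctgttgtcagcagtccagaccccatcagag
*Acsm3* ILMN_3075043: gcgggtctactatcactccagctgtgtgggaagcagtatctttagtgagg
*Acsm3* ILMN_1247231: ggacttggccaacatcctaaagaccagtga
*Acsm5* ILMN_1220520: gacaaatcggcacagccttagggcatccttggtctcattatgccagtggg
*Acsm5* ILMN_2658072: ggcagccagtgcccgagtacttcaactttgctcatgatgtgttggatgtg
*Acnat2* ILMN_2709810: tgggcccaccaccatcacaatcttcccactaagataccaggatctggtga
*Acnat2* ILMN_2858121: gcaaactctaaatagtgtgtaaagtgccag
*Acsl3* ILMN_3138743: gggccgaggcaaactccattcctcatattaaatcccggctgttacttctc

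Values are log2 signals as deposited, differences are A/J minus C57BL/6J on that scale, and the fold change is 2 to the power of the difference. A gene was called different at an adjusted *P* up to 0.05 together with a fold change of at least 1.5, which is 0.585 on the log2 scale, and the probe with the highest mean stood for its gene. Of the 7 members tested, 2 were higher in A/J livers (*Acsm5* and *Acnat2*), 2 were lower in A/J livers (*Acsm3* and *Acsl3*) and 3 were not called (*Acsm1*, *Acsl4* and *Acsl5*). The same rule called 5.29% of all 9052 genes tested, 2.13% as higher and 3.16% as lower in A/J livers. By probe, 2 of the 12 tested member probes were higher and 2 lower in A/J livers, against 4.86% of all tested probes, 1.91% higher and 2.96% lower. The adjusted *P* alone was passed by 4 member probes that were higher and 3 that were lower, against 26.5% of all tested probes, and the strains did not overlap for 3 member probes, against 8.51% of all tested probes. The median absolute difference was 0.59 over the 7 members and 0.098 over all genes tested. The median signed difference was 0.0049 over the members, against 0.013 over all genes, because members lay on both sides of 0. These shares are descriptions, since the members were chosen with results of these arrays known.

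Markers of liver and of other cells were read beside the family. The mean log2 signal of 12 measured hepatocyte markers was 13.89–14.00 in A/J samples and 13.81–13.95 in C57BL/6J samples. Exocrine pancreas genes, 15 of 19 listed, averaged 8.32–10.75 in A/J samples, with samples 4 and 7 above 10, and 8.15–12.51 in C57BL/6J samples, with sample 7 at 12.51. Without these 3 samples *Acsm3* and *Acsl3* were still called lower and *Acnat2* higher in A/J livers, whereas *Acsm5* stood at 0.54 (adjusted *P* = 0.000421), under 1.5-fold. Red blood cell genes, 4 of 5 listed, averaged 11.32–11.80 in A/J samples and 10.69–10.94 in C57BL/6J samples without overlap, mainly through *Hbb-b2*, at 10.04–10.90 in A/J samples and 8.00–8.36 in C57BL/6J samples. *Slc4a1* stood at 8.30–8.76 in A/J samples and 7.98–8.34 in C57BL/6J samples, a difference of 0.34, and *Alas2* and *Hba-a1* overlapped more widely, at differences of -0.12 and 0.073. Bile duct genes, 2 of 5 listed, averaged 7.91–8.05 in A/J samples and 8.14–8.27 in C57BL/6J samples, through *Sox9* at a difference of -0.40. The defining markers *Krt7* and *Krt19* had differences of -0.017 and -0.012 and stood at no more than 8.27 in any sample. Macrophage, stellate, endothelial and lymphocyte markers overlapped, and no adipocyte marker passed the filter. Whether the *Hbb-b2* probe reads the transcripts of both strains equally well was not tested. *Slc4a1* was higher in A/J livers as well, *Hba-a1* and *Alas2* did not follow, and whether blood content differed was not tested. The part of the red blood cell and bile duct genes in the differences below was not tested. In whole liver fewer cells of a type and less RNA per cell cannot be told apart.

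**Figure D1:**
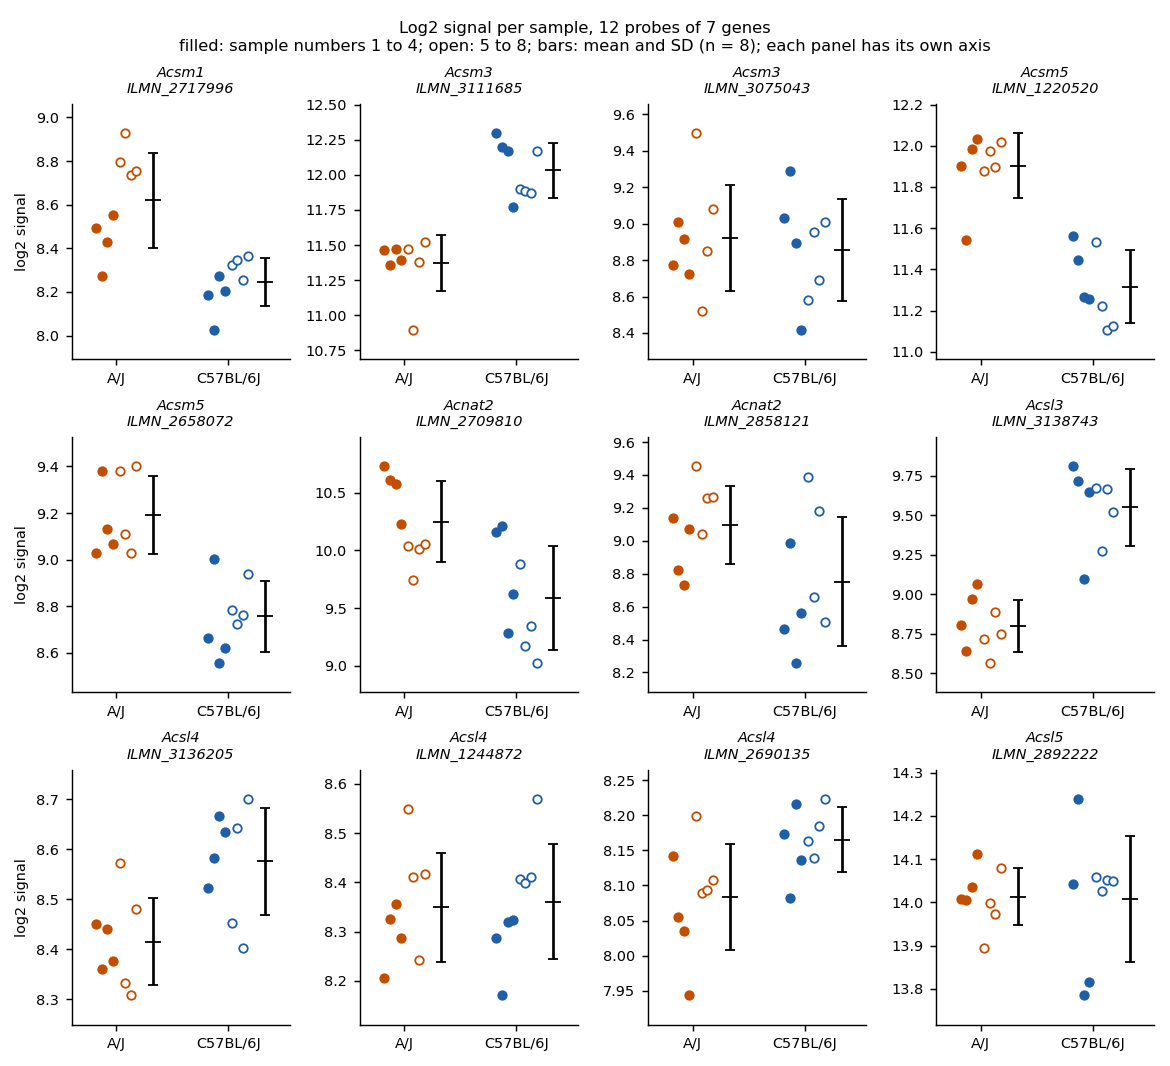
Log2 signal of each of the 12 tested probes in every sample, A/J on the left and C57BL/6J on the right of each panel, with filled points for sample numbers 1 to 4, open points for 5 to 8, and the mean and SD beside them (n = 8 per strain). The strains do not overlap for *Acsm3* ILMN_3111685, *Acsm5* ILMN_2658072 and *Acsl3* ILMN_3138743, and each panel has its own axis.

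*Acsm3*, a medium-chain synthetase first known as the SA gene of hypertensive rats, was lower in A/J livers by its brightest probe. ILMN_3111685 had a lowest, median and highest signal of 10.90, 11.43 and 11.52 in A/J samples, against 11.77, 12.04 and 12.30 in C57BL/6J samples. Every A/J sample lay below every C57BL/6J sample. The means were 11.37 ± 0.20 in A/J and 12.03 ± 0.19 in C57BL/6J livers (SD, n = 8 each), a difference of -0.66 (SE 0.092, 95% interval -0.86 to -0.47, 1.58-fold lower, adjusted *P* = 2.82e-05). Samples 1 to 4 and samples 5 to 8 gave -0.69 and -0.64, so the difference was present in both sets of sample numbers. The lowest A/J value came from sample 6, and without that sample the call was kept at -0.59.

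The second *Acsm3* probe, ILMN_3075043, did not show this difference. Its lowest, median and highest signals were 8.52, 8.88 and 9.50 in A/J samples and 8.42, 8.92 and 9.29 in C57BL/6J samples, so the strains covered nearly the same range. The means were 8.92 ± 0.29 in A/J and 8.86 ± 0.28 in C57BL/6J livers, a difference of 0.063 (SE 0.13, 95% interval -0.21 to 0.34, adjusted *P* = 0.784). On the log2 scale the interval leaves out a fall of the size seen with ILMN_3111685. ILMN_3075043 was the dimmer probe, and whether its lower signal made its difference smaller was not tested. The third probe, ILMN_1247231, was dim in both strains, at 7.81 ± 0.052 in A/J and 7.86 ± 0.078 in C57BL/6J livers, and was left out of the test.

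The disagreement between *Acsm3* probes was itself tested. For each sample the signals of the 2 probes were subtracted, and these differences were compared between strains by an exact permutation test over the 16 samples, two-sided, with Benjamini-Hochberg adjustment over all 14 probe pairs of the 5 genes with several probes. The strain difference of ILMN_3111685 minus that of ILMN_3075043 was -0.73 (exact *P* = 0.0001554, the smallest this design can give, adjusted *P* = 0.000725). The dim ILMN_1247231, close to the bottom of the scale, could hardly show a strain difference, so its pairs say nothing of agreement. Before these tests the *Acsm3* probes were already known to disagree, so the *P* values are no independent evidence. Each probe was assigned to another transcript record, and no genome of either strain was used here. A difference in transcripts, a base change under a probe and a smaller response of the dimmer probe cannot be told apart.

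*Acsm5*, another mitochondrial medium-chain synthetase, was higher in A/J livers by both of its probes. ILMN_1220520 had a lowest, median and highest signal of 11.54, 11.94 and 12.03 in A/J samples, against 11.11, 11.26 and 11.56 in C57BL/6J samples. The strains overlapped only because A/J sample 2, at 11.54, lay below C57BL/6J sample 1, at 11.56. The means were 11.90 ± 0.16 in A/J and 11.31 ± 0.18 in C57BL/6J livers (SD, n = 8 each), a difference of 0.59 (SE 0.079, 95% interval 0.42 to 0.76, adjusted *P* = 1.95e-05). At 1.505-fold this gene stood at the edge of the threshold. Leaving out A/J sample 3, 4, 6 or 8 or C57BL/6J sample 3, 4, 6, 7 or 8 brought the difference to 0.56–0.58, under 1.5-fold, with the adjusted *P* still passing.

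The other *Acsm5* probe, ILMN_2658072, separated the strains completely. Its lowest, median and highest signals were 9.03, 9.12 and 9.40 in A/J samples and 8.56, 8.74 and 9.002 in C57BL/6J samples. The difference was 0.43 (SE 0.076, 95% interval 0.27 to 0.60, adjusted *P* = 0.000306), below the fold threshold and so not called. The 2 probes differed in their strain difference by 0.15 (exact permutation test, *P* = 0.239, adjusted *P* = 0.279), and both stood on the same side of 0 in samples 1 to 4 and in samples 5 to 8.

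*Acsm1*, which activates butyrate and other medium-chain acids, had 1 probe and was not called. Its lowest, median and highest signals were 8.27, 8.64 and 8.93 in A/J samples and 8.03, 8.26 and 8.36 in C57BL/6J samples. All A/J samples but sample 2 lay above every C57BL/6J sample. The difference was 0.37 (SE 0.082, 95% interval 0.20 to 0.55, 1.295-fold, adjusted *P* = 0.00217), which passed the adjusted *P* but not the fold threshold. The *Acsm1* signals lay near the lowest kept mean, 8.00, and whether this made the fold smaller was not tested. Samples 1 to 4 gave 8.27–8.55 in A/J and 8.03–8.27 in C57BL/6J livers, and samples 5 to 8 gave 8.74–8.93 in A/J and 8.25–8.36 in C57BL/6J livers. Within each strain the higher sample numbers therefore had the higher mean signal, at 8.44 and 8.80 in A/J and 8.17 and 8.32 in C57BL/6J livers. The strain difference was 0.27 in samples 1 to 4 and 0.48 in samples 5 to 8. *Acsm2*, which in mice is mainly a kidney gene, had a dim probe at 7.72 ± 0.061 in A/J and 7.77 ± 0.034 in C57BL/6J livers (difference -0.053, adjusted *P* = 0.248 in the fit without a filter).

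**Figure D2:**
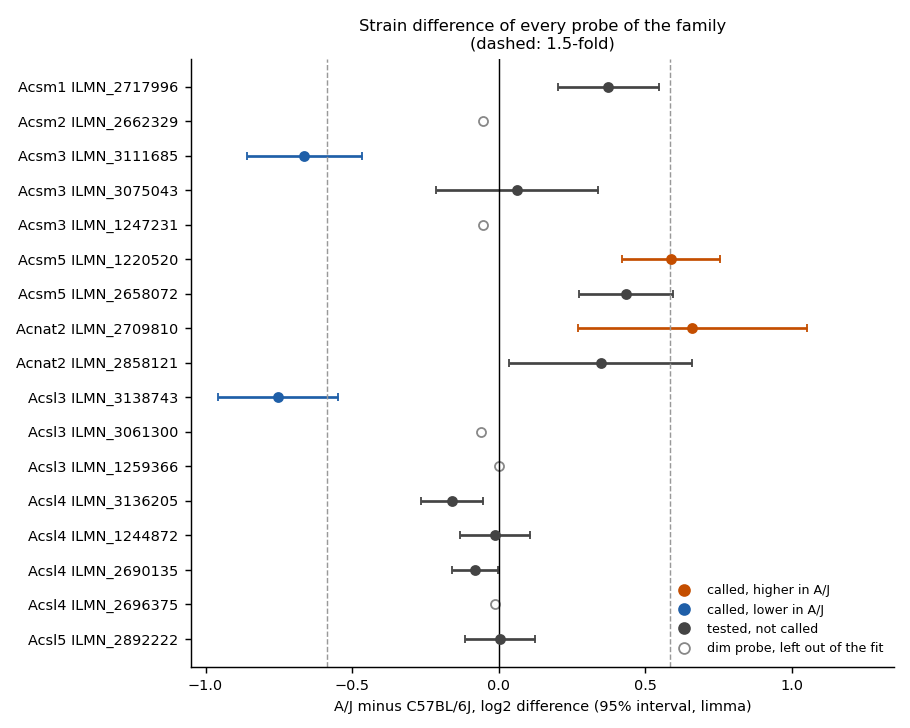
Strain difference of all 17 probes of the family, as A/J minus C57BL/6J log2 signal with the 95% interval of the limma fit, and the 1.5-fold threshold dashed. The probes of *Acsm5* and *Acnat2* lie to the right of 0, those of *Acsm3* run between -0.66 and 0.063, and the 5 open points are dim probes left out of the fit.

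The medium-chain genes lie side by side on chromosome 7 (GRCm38.p6). From *Acsm5* (chr7:119526131-119543360) the cluster runs through *Acsm2* (chr7:119554340-119600694), *Acsm1* (chr7:119617757-119662515) and *Acsm4* (chr7:119690026-119714566) to *Acsm3* (chr7:119760883-119784896), 259 kb in all. Strain differences within the cluster ran in both directions, at 0.59 for *Acsm5*, 0.37 for *Acsm1* and -0.66 for *Acsm3*. The *Acsm4* probe was dim in both strains. Between *Acsm4* and *Acsm3* lies *Thumpd1* (chr7:119715093-119723619), which encodes a partner of the tRNA acetyltransferase NAT10, and its single probe was lower in A/J livers, with a difference of -2.35 (adjusted *P* = 3.17e-16). No probe was placed on a genome of either strain here, and *Thumpd1* and *Acsm1* were each read by a single tested probe. For such genes a difference in RNA level and a base change under the probe cannot be told apart. *Eri2*, a nuclease gene that overlaps the end of *Acsm3*, had a difference of 0.043 (adjusted *P* = 0.635). Among 17 tested genes within 250 kb of a member that had a probe, *Thumpd1* was the 1 gene called. Of all genes tested the rule called 5.29%. The adjusted *P* alone was passed by 4 of the 17, against 28.1% of all genes. Besides *Thumpd1* these were *Mogat1* at -0.54 (adjusted *P* = 0.00299) and *Farsb* at -0.43 (adjusted *P* = 0.00143), both near *Acsl3*. The remaining gene was *Vti1a* near *Acsl5*, at 0.34 (adjusted *P* = 0.000452).

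**Figure D3:**
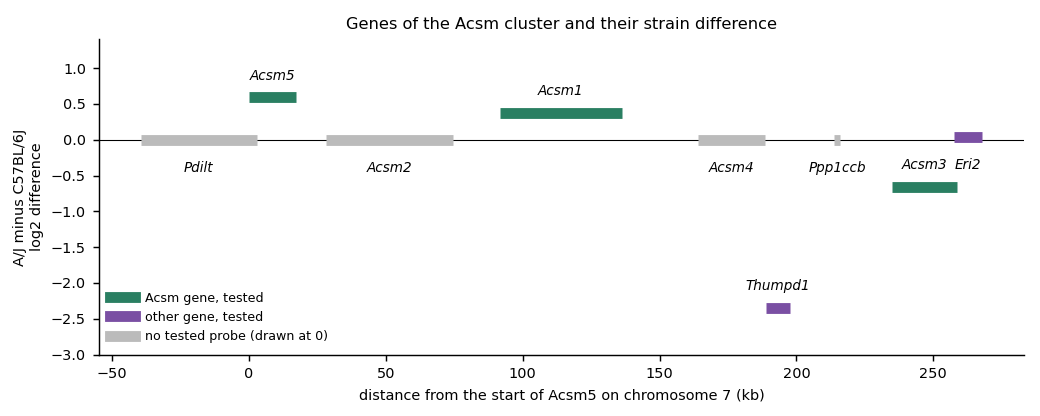
Genes of the *Acsm* cluster drawn to scale by distance in kb from the start of *Acsm5*, at the height of their A/J minus C57BL/6J log2 difference, with genes that had no tested probe in grey at 0. *Acsm5* and *Acsm1* stand above 0, *Acsm3* stands at -0.66 and *Thumpd1* at -2.35.

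*Acnat2*, on chromosome 4 (chr4:49374458-49408151), was the N-acyltransferase with probes on the array, and it was higher in A/J livers by the brighter of them. ILMN_2709810 had a lowest, median and highest signal of 9.74, 10.14 and 10.73 in A/J samples, against 9.03, 9.48 and 10.21 in C57BL/6J samples. The strains overlapped. The means were 10.25 ± 0.35 in A/J and 9.59 ± 0.45 in C57BL/6J livers (SD, n = 8 each), a difference of 0.66 (SE 0.19, 95% interval 0.27 to 1.05, 1.58-fold, adjusted *P* = 0.0124). Without C57BL/6J sample 8, the lowest of its group at 9.03, the difference was 0.58, below 1.5-fold (adjusted *P* = 0.0262).

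The second *Acnat2* probe, ILMN_2858121, pointed the same way and was not called. Its lowest, median and highest signals were 8.73, 9.10 and 9.45 in A/J samples and 8.26, 8.61 and 9.39 in C57BL/6J samples, a difference of 0.35 (SE 0.15, 95% interval 0.035 to 0.66, adjusted *P* = 0.0972). The strain differences of the probes were 0.31 apart (exact permutation test, *P* = 0.239, adjusted *P* = 0.279). Within each strain the probes ordered the samples differently. ILMN_2709810 averaged 10.53 in A/J samples 1 to 4 and 9.96 in A/J samples 5 to 8, whereas ILMN_2858121 averaged 8.94 in A/J samples 1 to 4 and 9.26 in A/J samples 5 to 8. The same turn was seen in C57BL/6J livers, at 9.82 and 9.35 for ILMN_2709810 and at 8.57 and 8.93 for ILMN_2858121. The labels do not say what a sample number stands for. *Baat*, the related bile acid enzyme beside *Acnat2*, had a difference of -0.18 (adjusted *P* = 0.569).

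**Figure D4:**
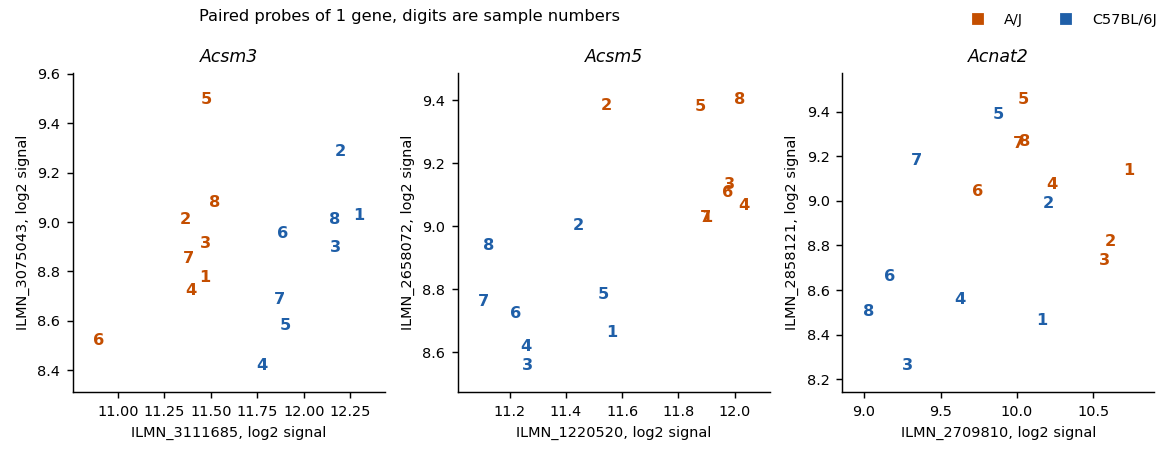
Signals of the paired tested probes of *Acsm3*, *Acsm5* and *Acnat2*, 1 probe on each axis in log2 units, with the digit giving the sample number and the colour the strain. The strains part along the horizontal axis and not the vertical axis for *Acsm3*, and along both axes for *Acsm5*.

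*Acsl3* (chr1:78657825-78707743), the long-chain synthetase of the endoplasmic reticulum and of growing lipid droplets, showed the largest difference of the tested members and was lower in A/J livers. ILMN_3138743 had a lowest, median and highest signal of 8.57, 8.78 and 9.06 in A/J samples, against 9.10, 9.66 and 9.81 in C57BL/6J samples. No A/J sample reached the lowest C57BL/6J sample. The means were 8.80 ± 0.17 in A/J and 9.55 ± 0.24 in C57BL/6J livers (SD, n = 8 each), a difference of -0.75 (SE 0.097, 95% interval -0.96 to -0.55, 1.68-fold lower, adjusted *P* = 1.23e-05). It was -0.70 in samples 1 to 4 and -0.80 in samples 5 to 8.

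The call rests on this 1 bright probe, for which a difference in RNA level and a base change under the probe cannot be told apart here, and the other *Acsl3* probes gave no second measurement. ILMN_3061300 stood at 7.83 ± 0.030 in A/J and 7.89 ± 0.090 in C57BL/6J livers, and ILMN_1259366 at 7.78 ± 0.059 in A/J and 7.78 ± 0.040 in C57BL/6J livers, both among the dim probes left out of the fit. Of the 6 probe pairs of any member in which both probes were bright enough to be tested, 1 passed the adjusted *P*, that of *Acsm3*. The other pairs past it, 2 of *Acsl3* and 1 of *Acsm3*, each set a called probe against a dim one and so only repeat the difference of the called probe.

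*Acsl4* (chrX:142317993-142390802), which prefers arachidonate, was not called, and its 4 probes gave differences between -0.16 and -0.012. The probe that stood for the gene, ILMN_3136205, had a lowest, median and highest signal of 8.31, 8.41 and 8.57 in A/J samples and 8.40, 8.61 and 8.70 in C57BL/6J samples, a difference of -0.16 (SE 0.050, 1.12-fold lower, adjusted *P* = 0.0244). ILMN_1244872 and ILMN_2690135, which share 41 of their 50 bases, differed by -0.012 (adjusted *P* = 0.914) and -0.082 (adjusted *P* = 0.121). No pair of *Acsl4* probes differed past the threshold over all samples, with adjusted *P* values of 0.0914 to 0.984 in the exact permutation test. The pair of ILMN_3136205 and ILMN_1244872 passed it without A/J sample 1, C57BL/6J sample 5 or C57BL/6J sample 7 (adjusted *P* = 0.0400, 0.0435 and 0.0213). ILMN_3136205 belongs to another transcript record than the other *Acsl4* probes. The tested *Acsl4* probes were also read near the lowest kept mean, 8.00, and whether this made their differences smaller was not tested. No other member probe shared a run of 16 bases with any probe on the array.

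*Acsl5* (chr19:55251861-55296628), a long-chain synthetase of mitochondria and the endoplasmic reticulum, was not called, and its difference had a narrow interval. Its lowest, median and highest signals were 13.90, 14.01 and 14.11 in A/J samples and 13.78, 14.05 and 14.24 in C57BL/6J samples. The difference was 0.0049 (SE 0.057, 95% interval -0.11 to 0.12, adjusted *P* = 0.966). The highest signal of any probe was 14.97, so this probe was read near the upper end of the scale.

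Other genes that make, conjugate, cleave or bind acyl-CoA were called by the same rule. Of 45 listed genes 42 had a probe and 33 were tested, of which 1 gene rose and 2 genes fell in A/J livers. The rule called 5.29% of all genes tested, 2.13% as higher and 3.16% as lower in A/J livers. The 33 genes had a median difference of -0.024 and a median absolute difference of 0.14. By the adjusted *P* alone 4 were higher and 7 lower, against 3 higher and 3 lower of the 7 members, and 28.1% of all genes passed it, 15.5% higher and 12.6% lower. Strains did not overlap for 5 of these 33 genes and for 2 of the 7 members, *Acsm3* and *Acsl3*, against 9.19% of all genes.

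Among 10 other synthetases, *Acss2*, which makes acetyl-CoA from acetate in the cytosol and nucleus, was the 1 called. Its lowest, median and highest signals were 12.01, 12.16 and 12.32 in A/J samples and 12.36, 12.72 and 13.29 in C57BL/6J samples, with no overlap and a difference of -0.64 (SE 0.12, adjusted *P* = 0.000423). The fatty acid transporters with synthetase activity *Slc27a2* and *Slc27a5* had differences of 0.024 (adjusted *P* = 0.745) and -0.048 (adjusted *P* = 0.553). Of 6 conjugating genes, *Nat8*, which acetylates cysteine conjugates, was the 1 called, at 9.30, 9.46 and 9.999 in A/J samples against 10.24, 10.62 and 11.41 in C57BL/6J samples. Its difference was -1.13 (SE 0.16, adjusted *P* = 2.34e-05), while *Glyat*, the glycine N-acyltransferase that uses the benzoyl-CoA made by ACSM enzymes, had a difference of -0.032 (adjusted *P* = 0.750). Without C57BL/6J sample 1 or 2, the highest for *Acss2* at 13.29 and 13.27, 1 of these other genes was called lower in place of 2. The call lost was that of *Acss2*.

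Of 12 thioesterases, which split acyl-CoA back into acid and coenzyme A, *Acot12* was the 1 called and was higher in A/J livers. The acetyl-CoA hydrolase gene *Acot12* had a lowest, median and highest signal of 11.20, 11.32 and 11.56 in A/J samples, against 10.58, 10.77 and 10.88 in C57BL/6J samples, a difference of 0.62 (SE 0.063, adjusted *P* = 6.20e-07). *Them4* went the other way without overlap, at 8.21–8.53 in A/J samples and 8.67–8.99 in C57BL/6J samples, a difference of -0.52 (adjusted *P* = 9.96e-07) that stayed under 1.5-fold. Of the 7 lower genes among all 4 lists that passed the adjusted *P*, *Acsf3* at -0.45 (adjusted *P* = 9.44e-05) and *Gm4952* at -0.51 (adjusted *P* = 0.0047) also stayed under it. None of 5 tested acyl-CoA binding genes was called, with *Acbd4* at 0.43 (adjusted *P* = 0.000231) and *Acbd5* at 0.37 (adjusted *P* = 0.0343) passing the adjusted *P* alone. *Dbi*, the general acyl-CoA binding protein, had a difference of -0.081 (adjusted *P* = 0.0727) by ILMN_1215469, whose highest signal, 14.97, was the highest on the arrays. A second bright probe, ILMN_3150159, gave a difference of -0.18 (adjusted *P* = 0.00931).

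**Figure D5:**
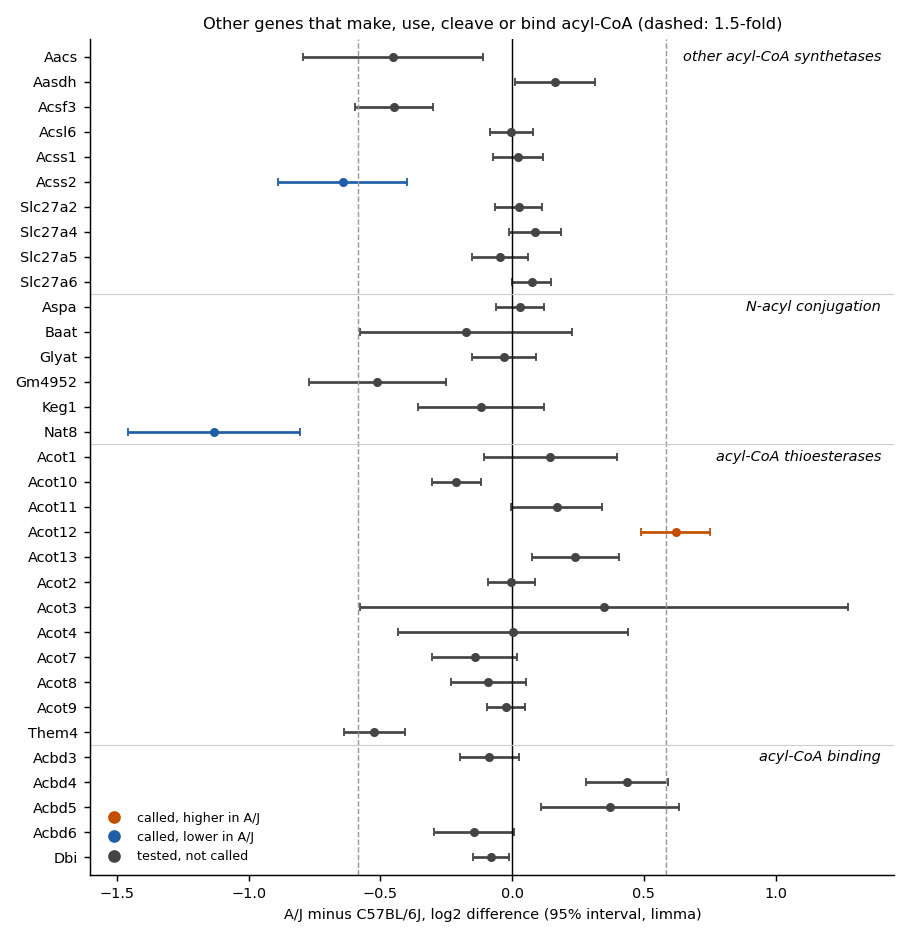
A/J minus C57BL/6J log2 difference with the 95% interval of the limma fit for the 33 other tested genes of acyl-CoA metabolism, grouped by role, with the 1.5-fold threshold dashed. *Acot12* is the 1 gene called higher in A/J, and *Acss2* and *Nat8* are the 2 called lower.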

How the data were processed

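Illumina Mouse Ref 8 arrays were hybridized with liver RNA of 8 A/J and 8 C57BL/6J samples. BeadStudio and lumi were used by the authors, with quantile normalization. Of versions, background correction and transform nothing is stated in the sources used here. The deposited values are log2 signals of 25697 probes, and whether the log2 was plain or variance-stabilized is unknown, so folds are 2 to the power of the difference. Once sorted, the columns agreed to within 0.00086, so arrays cannot be compared by total signal, and the number of arrays limits the precision. A deposited table of probe codes was decoded into the 50-base sequence of all 25697 probes. Of these, 23978 had a gene symbol and 1719 had none; positions are from RefSeq on GRCm38.p6.

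The filter of the methods rests on detection *P* values that were not used here; the same number of probes, those with the highest mean, was kept instead (lowest kept mean 8.00, array median 8.01). Strain differences were estimated by lmFit and eBayes of limma 3.58.1 under R 4.3.3 (14 residual and 3.11 prior degrees of freedom), with Benjamini-Hochberg adjustment over all kept probes, including 776 without a name. Probe pairs, sequences and figures were computed in Python 3.11.15 with pandas 2.3.3 and matplotlib 3.10.9.

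Named genes were all member probes and up to 4 called genes of largest difference from each list of other synthetases, N-acyl conjugation, thioesterases and acyl-CoA binding genes. *Thumpd1*, *Eri2*, *Mogat1*, *Farsb*, *Vti1a*, *Baat*, *Glyat*, *Slc27a2*, *Slc27a5*, *Them4*, *Acsf3*, *Gm4952*, *Acbd4*, *Acbd5* and *Dbi* were added after their values were seen. The members, lists and tests were chosen with earlier results of these data known. Alternatives were other filters on dim probes, repeated quantile normalization, median centring, array weights, robust eBayes with a trend, blocking on the sample number or its 2 ranges as a covariate, other fold thresholds, a fold of linear means, the probe of smallest *P* per gene, and leaving out single samples or the 3 with exocrine pancreas genes.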

Additional observations from a re-analysis of the deposited data

Results flagged for a closer look

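Of 34 sets of 8 values, 1 for each of the 17 probes in each strain, 4 held a sample far from the other 7 by Dixon's test, and chance gives about 1 in 20. For *Acsm3* ILMN_3111685, A/J sample 6 had a log2 signal of 10.90, against 11.36–11.52 in the other A/J samples. For *Acsm5* ILMN_1220520, A/J sample 2 had 11.54, against 11.88–12.03 in the other A/J samples. Among the dim probes, *Acsm3* ILMN_1247231 had 7.92 in A/J sample 5, against 7.74–7.82 in the other A/J samples, and *Acsm2* ILMN_2662329 had 7.85 in C57BL/6J sample 4, against 7.74–7.78 in the other C57BL/6J samples.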

How the results depend on the processing

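The calls of *Acsm3* and *Acsl3* as lower in A/J held under every alternative run except a fold threshold of 2, at which 0 member genes and 0 member probes were called in either direction, against 6 member genes that passed the adjusted *P* of limma alone. At that threshold 0 other acyl-CoA genes were called higher and 1 was called lower. With no fold threshold, 4 member probes were higher in A/J, and 4 other genes were higher and 7 lower. Without the 3 samples with exocrine pancreas genes, 1 member gene and 1 member probe were called higher and 3 other acyl-CoA genes were called lower in place of 2; *Acsm5* stood at 0.54 (adjusted *P* = 0.000421), and *Acsl4* ILMN_1244872 turned to 0.024. Leaving out each sample in turn gave 0 to 2 member genes and 0 to 2 member probes called higher, with 0 only without C57BL/6J sample 8, and 2 called lower throughout. The other genes called lower ranged from 1 to 2, with 1 without C57BL/6J sample 1 or 2. The probe pairs past the threshold ranged from 4 to 6, and those beyond the 4 were of *Acsl4*. Of the 4, 3 set a called probe against a dim one. Uncalled differences near 0 changed sign when single samples were left out, over -0.040 to 0.018 for *Acsl4* ILMN_1244872, -0.027 to 0.038 for *Acsl5* and -0.019 to 0.12 for *Acsm3* ILMN_3075043. *Acsl5* was also -0.00015 as a ratio of linear means. The cause was not tested. Of 344 probe values under all alternatives, 316 kept their direction and their side of the threshold.

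Samples with the same number in both strains deviated together with correlations of -0.015 to 0.54. Of the 8 numbers, 3 correlated best with their own number in the other strain. As the labels do not say what a number stands for, the numbers were not taken as pairs. With the number as a block, the limma adjusted *P* of *Acnat2* ILMN_2709810 was 0.00072 in place of 0.0124. For *Acnat2* ILMN_2858121 it was 0.0211 in place of 0.0972. Whether the numbers mark a shared source was not tested. With the replicate block the calls were again 2 member genes and 2 member probes higher, 2 member genes and 2 member probes lower, 1 other gene higher and 2 lower, and 4 probe pairs past the threshold; the block for probe pairs was added after seeing the data. Dim probes were measured close to the bottom of the scale, at 7.61, and say little of a strain difference in their transcripts.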
